A study of Mus musculus with 11 samples.

Results

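Transcripts of the unfolded protein response and the integrated stress response were examined in hearts of female mice with a model of polycystic ovary syndrome (PCOS). Of 39 listed genes, found by symbol through the RefSeq accessions of the table (GRCm38), 37 were matched to one of its 21878 rows, and 35 passed the filter of a mean of at least 1 FPKM (fragments divided by transcript length and by library size) over the 11 samples. Herpud1 and Pdia4 matched no accession and were not analysed here; 2800 rows of the table had no symbol. Phgdh and Fgf21 had a row and were below the filter. Heat shock and DNAJ chaperones are not in the list. The PCOS group held 5 heart samples from wild-type females exposed to anti-Müllerian hormone before birth, and the control group 6 heart samples from wild-type females that received PBS vehicle before birth. The labels give no age, litter or batch, and they do not say whether each sample is a separate mouse, so p-values measure the spread between samples, which may in part be technical.

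When unfolded proteins build up in the endoplasmic reticulum (ER), the sensors IRE1 (Ern1), PERK (Eif2ak3) and ATF6 signal to the nucleus. IRE1 splices the Xbp1 transcript, and ATF6 is cut to release a transcription factor, and both then raise genes for folding and for ER-associated degradation. PERK is also a kinase of the translation factor eIF2alpha, as are HRI (Eif2ak1), PKR (Eif2ak2) and GCN2 (Eif2ak4), which respond to haem or mitochondrial stress, double-stranded RNA and amino acid shortage. Phosphorylated eIF2alpha lowers general translation and favours translation of ATF4, which raises genes of amino acid supply and of feedback. Splicing of Xbp1, cleavage of ATF6 and translation of Atf4 are not visible in gene-level FPKM, so only transcript levels are described.

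Known binding sequences of these factors were sought in the RefSeq promoter windows (GRCm38.p6, from 250 bases before to 50 bases after each start site), which were held for 35 of the 39 genes; Atf6, Manf, Derl1 and Ppp1r15b were not matched. The ER stress response element, bound by ATF6 with NF-Y, was searched as CCAAT, 9 free bases and CCACG on both strands. It was found in 5 of these 35 genes (14.3%), namely Calr, Canx, Creld2, Pdia6 and Syvn1, against 0.119% of all 32851 windows. Its variant, ATTGG, 1 free base and CCACG, searched in the same way, was found in Herpud1 and in 0.0365% of all windows. The composite site of C/EBP and ATF factors, through which ATF4 acts, was searched as TGATGNAA on both strands. It was found in 6 of the 35 genes (17.1%), namely Asns, Chac1, Fgf21, Herpud1, Nupr1 and Trib3, against 3.97% of all windows. Herpud1 held both the variant and the composite site, without overlap, and no other gene named here held more than 1 of the 3 motifs. The share of the 35 genes, which had 40 windows, counts a gene once if any of its windows matched. The share over all counts single windows, so the 2 are not the same measure. A match describes letters in the window and not binding, and the genes were listed as known members of these pathways.

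The 200 bases before the start site are shown for 4 genes of ER folding, with the ER stress response element in capitals, because they share that element and their transcripts are compared below. The element reads on the opposite strand in Creld2 and Calr.
Creld2, chr15:88819446-88819645, plus strand: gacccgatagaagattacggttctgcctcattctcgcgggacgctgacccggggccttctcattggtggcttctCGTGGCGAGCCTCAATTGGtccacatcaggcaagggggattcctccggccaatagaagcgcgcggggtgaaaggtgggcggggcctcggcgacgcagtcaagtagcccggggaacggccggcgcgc
Pdia6, chr12:17266389-17266588, plus strand: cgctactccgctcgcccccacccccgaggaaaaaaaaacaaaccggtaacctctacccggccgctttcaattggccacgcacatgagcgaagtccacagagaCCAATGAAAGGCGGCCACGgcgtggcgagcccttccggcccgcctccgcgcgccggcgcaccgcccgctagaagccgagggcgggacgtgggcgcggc
Calr, chr8:84846932-84847131, minus strand: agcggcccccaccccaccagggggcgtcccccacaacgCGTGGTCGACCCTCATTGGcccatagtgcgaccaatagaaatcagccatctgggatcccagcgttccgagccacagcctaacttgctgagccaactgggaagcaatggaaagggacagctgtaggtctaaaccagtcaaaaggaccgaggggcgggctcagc
Canx, chr11:50325674-50325873, minus strand: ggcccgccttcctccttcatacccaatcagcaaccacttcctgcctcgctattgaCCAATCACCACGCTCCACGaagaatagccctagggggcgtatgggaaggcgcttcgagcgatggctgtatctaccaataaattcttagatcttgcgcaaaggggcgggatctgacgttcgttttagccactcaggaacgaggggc

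For the ATF4 arm the same stretch is shown for 3 genes with the composite site in capitals, because these genes share its letters and their transcripts are compared below. The site reads on the opposite strand in Chac1 and Nupr1.
Asns, chr6:7693210-7693409, minus strand: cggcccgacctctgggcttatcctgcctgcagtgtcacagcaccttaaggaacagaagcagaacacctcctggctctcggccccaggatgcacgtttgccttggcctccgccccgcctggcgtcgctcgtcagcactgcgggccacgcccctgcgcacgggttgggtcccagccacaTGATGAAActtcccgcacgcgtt
Chac1, chr2:119351042-119351241, plus strand: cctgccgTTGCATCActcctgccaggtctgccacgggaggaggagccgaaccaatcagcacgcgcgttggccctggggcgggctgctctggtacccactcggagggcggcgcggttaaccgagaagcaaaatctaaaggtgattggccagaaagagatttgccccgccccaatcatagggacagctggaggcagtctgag
Nupr1, chr7:126625471-126625670, minus strand: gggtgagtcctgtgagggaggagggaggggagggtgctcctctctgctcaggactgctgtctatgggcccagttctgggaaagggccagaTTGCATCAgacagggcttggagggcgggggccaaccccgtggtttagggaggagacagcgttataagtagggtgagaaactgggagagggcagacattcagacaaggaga

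Recovered whole reads, summed over all 15939 rows of the table in which they could be read, ranged from 11866291 to 14346620 per sample, and a tested gene of the response had a median of 409 reads per sample (lowest 11). Heart muscle markers were abundant in every sample: 5 of 6 had a row, with summed levels of 31460 to 34320 FPKM in PCOS and 28160 to 32510 FPKM in control hearts. Control replicate 6 stood apart. The 8 hepatocyte markers summed to 1.65 to 2.92 FPKM in PCOS hearts, 1.58 to 9.43 FPKM in control replicates 1 to 5 and 2031 FPKM in control replicate 6, with Alb at 851.7 FPKM there. Macrophage markers (6 of 8 with a row) summed to 276.7 to 387 FPKM in PCOS and 129.4 to 249.1 FPKM in control hearts, with no overlap. Of all tested rows, taken singly, 0.45% had PCOS above every control. All 6 macrophage markers had a positive difference, and 1 passed an adjusted p of 0.05 (limma), against 0.138% of all tested rows. Sums of fibroblast, endothelial, smooth muscle, B and plasma cell, and adipocyte markers overlapped between the groups. In the fibroblast and the endothelial list, 1 of 5 tested markers had a positive difference. Erythroid markers summed to 849.5 to 2229 FPKM in PCOS and 530.3 to 1528 FPKM in control hearts, with overlap. All 5 tested erythroid markers were higher in PCOS at an unadjusted p under 0.05 (limma), against 3.51% of all tested rows, and 0 passed an adjusted p of 0.05. The part of these cells in the differences below was not tested, and in whole tissue fewer cells of a type and less RNA per cell cannot be told apart.

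None of the 35 tested genes of the response differed between PCOS and control hearts at an adjusted p under 0.05 (limma on log2(FPKM + 1), Benjamini-Hochberg over all 10891 tested rows), where 0.138% of all tested rows did. At an unadjusted p under 0.05 there were 4 of 35 (11.4%), against 6.68% of all tested rows. Ddit4 and Nupr1 had higher values in PCOS, against 3.51% of all tested rows in that direction, and Sesn2 and Ern1 lower values, against 3.17%. The PCOS means of Sesn2 and Ern1, 0.939 and 0.956 FPKM, were below the filter of 1 FPKM. Both genes passed the filter only through their higher control values, so their lower values in PCOS are no independent support. No gene of the 35 had all PCOS samples on one side of all controls, against 0.698% of all tested rows (0.45% with PCOS above and 0.248% with PCOS below). The median difference (PCOS hearts less control hearts) was 0.01 in log2(FPKM + 1) units, with 18 genes positive and 17 negative, beside a median of 0.00172 over all tested rows. Of all tested rows, 50.6% had a positive difference. For 29 of the 35 genes, and for 21 of the 24 with a mean of at least 5 FPKM, the 95% confidence interval of the difference lay within a 1.5-fold change in either direction. Adding 1 to the FPKM makes such differences smaller than the true ones in scarce transcripts. All differences below are in these log2 units, PCOS hearts less control hearts.

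Without control replicate 6, which held the liver transcripts, 13 of the 35 genes (37.1%) were at an unadjusted p under 0.05, against 19.4% of all tested rows, and 0 passed an adjusted p of 0.05 (limma, lowest adjusted p = 0.0969), against 0.294% of all tested rows. Of the 13, 8 had higher values in PCOS (Nupr1, Atf5, Ddit4, Asns, Creld2, Manf, Pdia3 and Sec61b), against 9.62% of all tested rows in that direction. The other 5 had lower values (Atf6, Ern1, Sesn2, Chac1 and Sel1l), against 9.75% of all tested rows. Creld2 then lay above every remaining control in all PCOS samples and Sesn2 below every one, 5.71% of the 35 genes, against 3.55% of all tested rows (1.7% with PCOS above and 1.85% with PCOS below). These names were chosen after their values were seen.

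**Figure D1:**
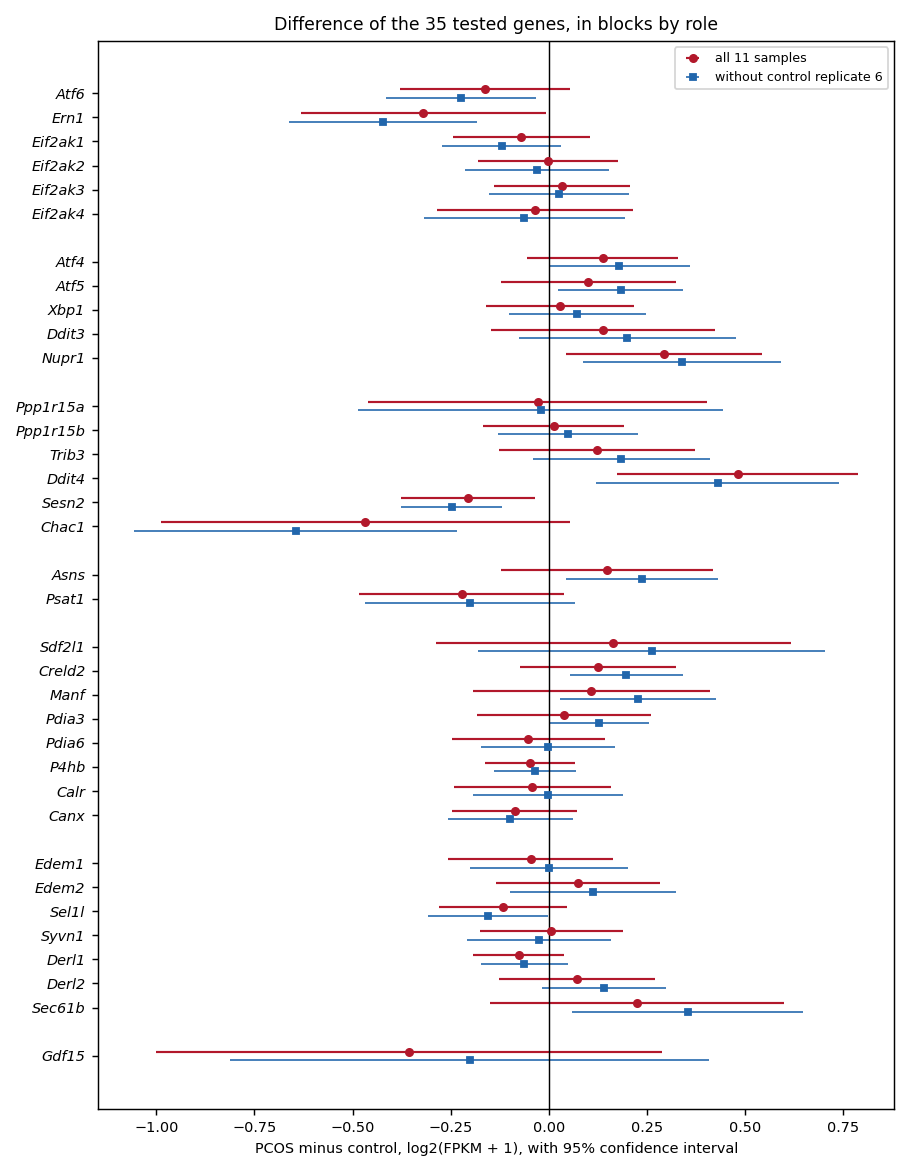
Difference of PCOS from control hearts in log2(FPKM + 1) (horizontal axis) for the 35 tested genes, in blocks by role from sensors at the top to Gdf15 at the bottom, with 95% confidence intervals. Red circles are the fit of all 11 samples and blue squares the fit without control replicate 6. Ddit4, at 0.48, lies farthest to the right and Chac1, at −0.47, farthest to the left among the red circles.

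Among the sensors and eIF2alpha kinases, 5 of 6 differences were negative (Eif2ak2, near 0, turned positive in 8 of its 20 alternatives, quantile normalization among them, and Eif2ak4 without PCOS replicate 3 and without control replicate 1) and 0 passed an adjusted p of 0.05 (lowest adjusted p = 0.738). Ern1, the sensor IRE1 (chr11:106397620-106487796), was at 0.82, 0.87, 0.824, 1.24 and 1.03 FPKM in PCOS hearts, and ran from 0.705 through a median of 1.45 to 2.18 FPKM in control hearts. Of the controls, replicates 1 and 5 were highest and replicate 6, the lowest of all 11 samples, lay below every PCOS heart. The log2 difference was −0.32 (SE 0.14, limma adjusted p = 0.738), and without control replicate 6 it was −0.42 (SE 0.11, limma adjusted p = 0.106), with adjusted p from 0.106 to 0.9997 over its 20 alternatives. Ern1 was covered by 36 to 113 reads per sample. Its PCOS mean of 0.956 FPKM was below the filter of 1 FPKM, which it passed through the control mean of 1.48 FPKM.

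Atf6 was at 12.8, 12.5, 14.5, 15.2 and 14.2 FPKM in PCOS hearts, and from 12.4 through a median of 16.1 to 18.8 FPKM in control hearts. Controls 1, 2, 4 and 5 lay above every PCOS heart and controls 3 and 6 among or below them. The difference was −0.16 (SE 0.10, adjusted p = 0.753), and −0.22 without control replicate 6 (limma adjusted p = 0.198, the lowest over its alternatives, which reached 0.9997).

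The eIF2alpha kinases had small differences with overlapping groups. Eif2ak3, which encodes PERK, was at 2.46, 2.55, 2.06, 2.26 and 2.68 FPKM in PCOS hearts and from 1.94 through a median of 2.32 to 2.75 FPKM in control hearts. Its PCOS values lay within the control range, with a difference of 0.03 and a 95% interval of −0.14 to 0.21. Eif2ak1, the haem-regulated kinase that is known from red cell precursors, was at 11, 11.2, 12.3, 13.7 and 11.6 FPKM in PCOS hearts and from 10.4 through a median of 12.8 to 14.5 FPKM in control hearts. It also stayed within the control range (difference −0.07, 95% interval −0.24 to 0.10). Erythroid markers were higher in PCOS on average, with overlap of the groups, and the part of red cells in Eif2ak1 was not tested. Eif2ak2 and Eif2ak4 differed by −0.003 and −0.04.

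All 5 transcription regulators had positive differences, from 0.03 to 0.29, where 50.6% of all tested rows did. The median was 0.14, and 0 of 5 passed an adjusted p of 0.05. Without control libraries 2 and 5 together, Atf5, Ddit3 and Xbp1 had differences just below 0. Nupr1, a small chromatin-associated protein induced by cell stress (chr7:126623246-126625470), was at 8.16, 9.92, 8.80, 9.47 and 6.40 FPKM in PCOS hearts and from 5.18 through a median of 7.10 to 8.08 FPKM in control hearts. Of the PCOS hearts 4 lay above every control and replicate 5 lay below 4 of them. The difference was 0.29 (SE 0.12, limma adjusted p = 0.738), and adjusted p ran from 0.154, without control replicate 6, to 0.9997 over 21 alternatives. Nupr1 is a short transcript of 626 bases with 41 to 79 reads per sample.

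Atf4, the main effector of the integrated stress response, was at 60.9, 69.3, 66.4, 59.7 and 63.8 FPKM in PCOS hearts and from 47.2 through a median of 60.01 to 67.3 FPKM in control hearts. Every PCOS heart exceeded controls 1, 2 and 4, and controls 3, 5 and 6 lay among the PCOS values. The difference was 0.14 (SE 0.09, adjusted p = 0.758), or 0.18 without control replicate 6 (limma adjusted p = 0.259, in a range of 0.243 to 0.9997 over its alternatives).

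Xbp1, the transcript that IRE1 splices, was at 24.5, 26.2, 26.9, 27.2 and 26.9 FPKM in PCOS hearts and from 22.1 through a median of 25.4 to 30.5 FPKM in control hearts. The PCOS values lay inside the control range, and the difference of 0.03 had a 95% interval of −0.16 to 0.22. Its sign turned without control replicate 2 and without control replicate 3. Ddit3, which encodes the transcription factor CHOP of prolonged stress, was at 13.2, 15.5, 13.0, 14.0 and 11.5 FPKM in PCOS hearts and from 8.69 through a median of 12.3 to 15.2 FPKM in control hearts. Controls 1, 2 and 5 lay below every PCOS heart and controls 3, 4 and 6 among them, with a difference of 0.14 (SE 0.13, adjusted p = 0.812). Atf5, a relative of Atf4 that also answers mitochondrial stress, averaged 28.4 ± 1.88 FPKM in PCOS hearts (SD, n = 5) and 26.7 ± 4.78 FPKM in control hearts (SD, n = 6), with control replicate 6 highest at 35.4 FPKM.

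**Figure D2:**
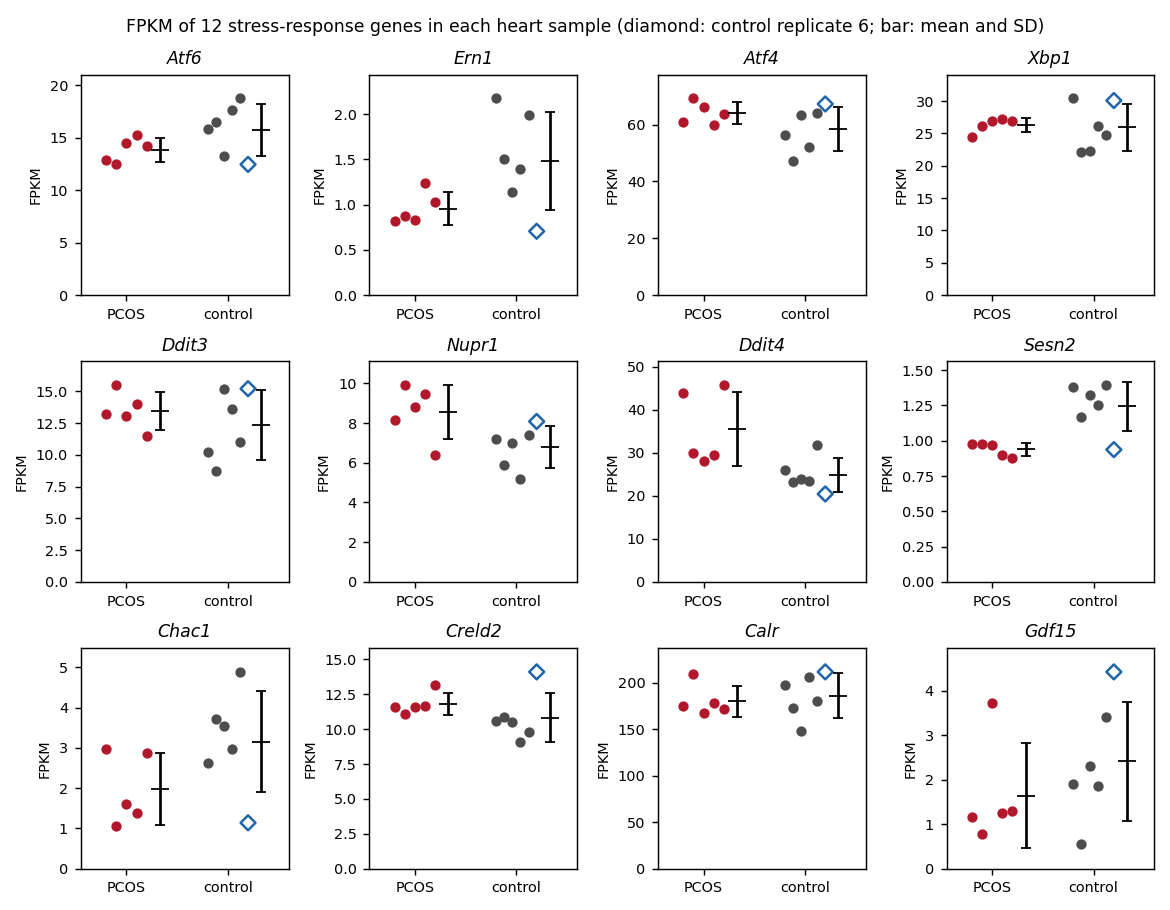
FPKM (vertical axes, each from 0) of 12 genes in every heart sample, PCOS in red at the left and controls at the right, with the mean and SD of each group as a black bar; the blue diamond is control replicate 6. In Sesn2 the 5 PCOS hearts lie below controls 1 to 5, and the diamond, at 0.937 FPKM, lies among the PCOS hearts.

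Feedback and stress-induced targets did not share a direction: 3 of 6 had positive and 3 negative differences, and 0 passed an adjusted p of 0.05. Ddit4, which encodes REDD1, an inhibitor of mTORC1 that ATF4 raises and that glucocorticoids and hypoxia also raise (chr10:59949675-59951770), was at 44.0, 29.9, 28.2, 29.6 and 45.8 FPKM in PCOS hearts and from 20.5 through a median of 23.6 to 31.9 FPKM in control hearts. PCOS replicates 1 and 5 lay above every control, and the other PCOS hearts lay above every control but replicate 5. The mean was 35.5 ± 8.63 FPKM in PCOS hearts (SD, n = 5) and 24.8 ± 3.89 FPKM in control hearts (SD, n = 6). The difference was 0.48 (SE 0.14, 95% interval 0.17 to 0.79, limma adjusted p = 0.738). The difference stayed between 0.38 and 0.55 over 21 alternatives, with adjusted p from 0.0648 to 0.996.

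Sesn2, which encodes sestrin 2, another restraint on mTORC1 (chr4:132492804-132510456), was at 0.9752, 0.9757, 0.970, 0.898 and 0.877 FPKM in PCOS hearts and from 0.937 through a median of 1.29 to 1.395 FPKM in control hearts. The PCOS values were tightly grouped, and of the controls only replicate 6 reached them. The PCOS mean of 0.939 FPKM was below the filter of 1 FPKM, which Sesn2 passed through the control mean of 1.24 FPKM. The difference was −0.21 (SE 0.08, limma adjusted p = 0.738), and −0.25 without control replicate 6 (SE 0.06, limma adjusted p = 0.0969, in a range up to 0.9997). It rested on 31 to 50 reads per sample.

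Chac1, a glutathione-degrading enzyme and a target of ATF4 and CHOP, was at 2.97, 1.05, 1.599, 1.38 and 2.88 FPKM in PCOS hearts and from 1.14 through a median of 3.26 to 4.89 FPKM in control hearts. PCOS replicates 1 and 5 lay among controls 1 to 5, and control replicate 6 lay among the 3 low PCOS hearts. The difference was −0.47 (SE 0.24, limma adjusted p = 0.738), or −0.65 without control replicate 6 (SE 0.19, limma adjusted p = 0.132, in a range of 0.118 to 0.9997).

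Ppp1r15a, which encodes GADD34, the inducible subunit that brings a phosphatase to eIF2alpha, averaged 24.4 ± 6.48 FPKM in PCOS hearts (SD, n = 5) and 25.4 ± 9.05 FPKM in control hearts (SD, n = 6). The difference was −0.03 (95% interval −0.46 to 0.40). It turned positive in 6 of 21 alternatives, among them without control replicate 5 and without PCOS replicate 1, 4 or 5. Ppp1r15a was highest in PCOS replicate 3, at 35.6 FPKM, and in control replicate 5, at 42.8 FPKM. The 6 immediate-early genes, Fos and Egr1 among them, summed to 409 FPKM in PCOS replicate 3 and 439.2 FPKM in control replicate 5, the highest sums of each group; the lowest were 194.2 FPKM among PCOS and 102.9 FPKM among control hearts. The part of handling-related transcription in Ppp1r15a was not tested. Ppp1r15b, the constitutive counterpart, differed by 0.01 (95% interval −0.17 to 0.19). Trib3, a pseudokinase that restrains ATF4 and AKT, differed by 0.12.

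Of the amino acid synthesis genes, Asns and Psat1 were tested and had differences of opposite sign. Asns, asparagine synthetase, was at 1.34, 1.29, 0.956, 1.16 and 1.45 FPKM in PCOS hearts and from 0.671 through a median of 0.977 to 1.76 FPKM in control hearts, where replicate 6 was highest. The groups overlapped, with a difference of 0.15 (SE 0.12, adjusted p = 0.803), or 0.24 without control replicate 6 (limma adjusted p = 0.182, the lowest over its alternatives, which reached 0.9997). Psat1, of the serine pathway, was at 1.72, 0.789, 1.62, 1.27 and 1.58 FPKM in PCOS hearts and from 1.39 through a median of 1.85 to 2.199 FPKM in control hearts. PCOS replicates 2 and 4 lay below every control and the others among them (difference −0.22, SE 0.12, adjusted p = 0.742). Phgdh, the first enzyme of that pathway and below the filter, averaged 0.811 ± 0.207 FPKM in PCOS hearts (SD, n = 5) and 0.920 ± 0.444 FPKM in control hearts (SD, n = 6).

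In FPKM, a level per length, the most abundant genes of the response were the ER folding genes Calr and P4hb, while Sdf2l1, Creld2 and Manf of the same group lay below Atf4. All 8 tested differences lay between −0.09 and 0.16, with 4 positive and 4 negative in the fit of all samples. At an unadjusted p under 0.05 (limma) there were 0 of 8, against 6.68% of all tested rows. In the fit without control replicate 6, 3 were higher in PCOS at that bound and 0 lower, against 9.62% and 9.75% of all tested rows. Calr, the calcium-binding lectin chaperone calreticulin and the most abundant of the 37 genes, was at 174, 209, 167, 177 and 171 FPKM in PCOS hearts and from 148 through a median of 189 to 211 FPKM in control hearts. The PCOS hearts lay within the control range, and the difference of −0.04 had a 95% interval of −0.24 to 0.16. P4hb, a protein disulphide isomerase, was at 101, 113, 114, 118 and 107 FPKM in PCOS hearts and from 111 through a median of 113 to 119 FPKM in control hearts. PCOS replicates 1 and 5 lay below every control (difference −0.05, 95% interval −0.16 to 0.07).

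Canx, the membrane-bound partner of calreticulin, was at 59.2, 68.5, 72.8, 72.2 and 66.3 FPKM in PCOS hearts and from 62.2 through a median of 73.0 to 79.0 FPKM in control hearts. PCOS replicate 1 lay below every control and the other PCOS hearts among them (difference −0.09, SE 0.07, adjusted p = 0.802). Creld2, a disulphide isomerase-like ER protein that stress induces, was at 11.6, 11.1, 11.6, 11.6 and 13.1 FPKM in PCOS hearts and from 9.05 through a median of 10.6 to 14.1 FPKM in control hearts. Control replicate 6 was highest of all 11 samples, and controls 1 to 5 lay below every PCOS heart. The difference was 0.12 (SE 0.09, adjusted p = 0.784), or 0.20 without control replicate 6 (SE 0.07, limma adjusted p = 0.152, the lowest over its alternatives, which reached 0.9997).

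The 4 genes whose promoters are printed with the ER stress response element had differences of 0.12 (Creld2), −0.05 (Pdia6), −0.04 (Calr) and −0.09 (Canx). The 3 printed with the composite site had differences of 0.15 (Asns), −0.47 (Chac1) and 0.29 (Nupr1). Of the other tested genes with a match, Syvn1, with the ER stress response element, differed by 0.01 and Trib3, with the composite site, by 0.12.

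Control replicate 6 was the highest of the 11 samples in 6 of the 8 ER folding genes, Creld2, Manf, Pdia3, Pdia6, P4hb and Calr, and in 14 of the 35 genes in all, while it was highest in 18.7% of all tested rows. Manf, a secreted survival factor that stays in the ER until stress, was at 28.4 FPKM there, 1.66 times the mean of the other controls, and Pdia3, which folds glycoproteins with calnexin and calreticulin, at 87.3 FPKM, 1.46 times that mean. Control replicate 6 was the lowest of all samples in 4 of the 35 genes, 3 of them sensors or eIF2alpha kinases, and in 20.7% of all tested rows. Other controls were also often extreme. Control replicate 4 was the lowest in 10 of the 35 genes and in 20.7% of all tested rows. Control replicate 1 was the highest in 7 of the 35 genes and in 18.2% of all tested rows. Without control replicate 6, the median difference of the ER folding genes was 0.06, against −0.002 in all samples. That of the sensors and eIF2alpha kinases together was −0.09, against −0.05.

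**Figure D3:**
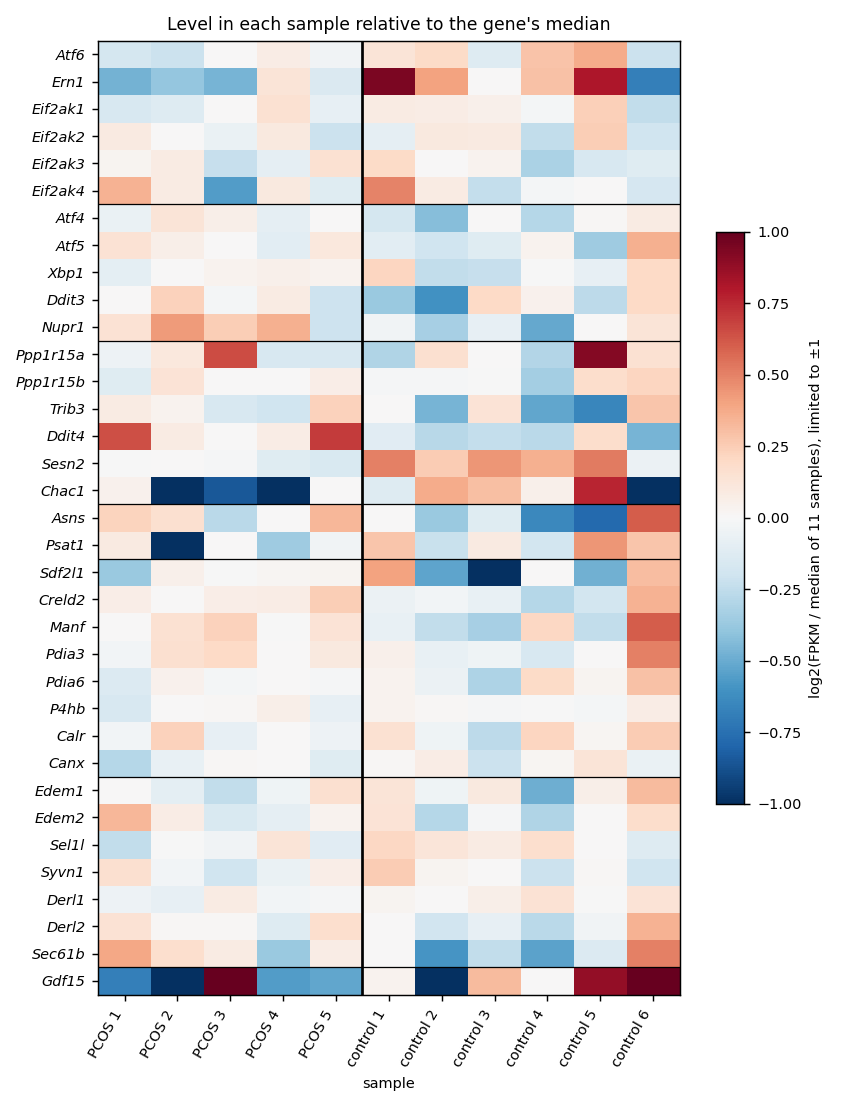
Level of each of the 35 tested genes (rows, in blocks by role) in each of the 11 samples (columns, PCOS at the left of the vertical line), as log2 of FPKM over the gene's median, with the colour limited to 1 either way. Control replicate 6, the last column, is red across most ER folding genes and blue in Ern1 and Chac1.

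The genes of ER-associated degradation and translocation had differences from −0.12 to 0.22, with 4 positive and 3 negative. At an unadjusted p under 0.05 (limma) there were 0 of 7, against 6.68% of all tested rows. In the fit without control replicate 6, 1 was higher in PCOS at that bound and 1 lower, against 9.62% and 9.75% of all tested rows. Sec61b, a subunit of the channel through which new proteins enter the ER, was at 28.3, 24.3, 22.9, 16.8 and 22.8 FPKM in PCOS hearts and from 14.4 through a median of 19.0 to 30.7 FPKM in control hearts. Control replicate 6 was highest and PCOS replicate 4 lay below 4 of the controls (difference 0.22, SE 0.17, adjusted p = 0.793). Sel1l, the partner of the ubiquitin ligase Syvn1, was at 10.1, 12.01, 11.8, 13.2 and 11.2 FPKM in PCOS hearts and from 11.01 through a median of 12.9 to 13.9 FPKM in control hearts. The groups overlapped (difference −0.12, SE 0.08, adjusted p = 0.755). Derl1, part of the exit channel, was at 22.4, 21.8, 24.5, 22.7 and 22.9 FPKM in PCOS hearts and from 23.1 through a median of 23.8 to 25.6 FPKM in control hearts. Of the PCOS hearts 4 lay below every control, and replicate 3 lay among them (difference −0.08, SE 0.05, adjusted p = 0.772). Syvn1, Derl2, Edem1 and Edem2, the last pair lectins that mark glycoproteins for degradation, differed by 0.01, 0.07, −0.05 and 0.07.

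Both secreted hormones of the response were scarce. Fgf21, an ATF4 target released mainly by liver, was listed at 0 in all PCOS hearts and in all control hearts but replicate 5, which had 0.133 FPKM; control replicate 6, with its liver transcripts, was also at 0. Gdf15, a circulating signal of cell stress, was at 1.16, 0.782, 3.72, 1.26 and 1.30 FPKM in PCOS hearts and from 0.564 through a median of 2.11 to 4.43 FPKM in control hearts. It varied most of the tested genes, with a coefficient of variation of 61.8% over the 11 samples against 4.47% for P4hb, the lowest. The groups overlapped (difference −0.36, 95% interval −1.001 to 0.29), and the lowest sample had 11 reads.

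The differences tended to be lower in longer transcripts, as over the whole table. Spearman's rho between the difference and the length implied by the FPKM steps was −0.45 over the 35 genes and −0.37 over 10880 tested rows with a length. These are descriptions across genes of the same 11 libraries, and genes are not independent replicates. All 3 genes under 1000 bases, Nupr1, Sec61b and Sdf2l1, had positive differences (median 0.22), in a class where 82.4% of 608 rows did (median 0.11). Of the 27 from 1000 to 5000 bases, 14 had positive differences (median 0.006), in a class where 55.75% of 7267 rows did (median 0.015). Of the 5 over 5000 bases, 4 had negative differences (Atf6, Sel1l, Edem1 and Eif2ak4), in a class where 31.9% of 3001 rows were positive (median −0.05). The part of length in the differences of single genes was not tested.

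**Figure D4:**
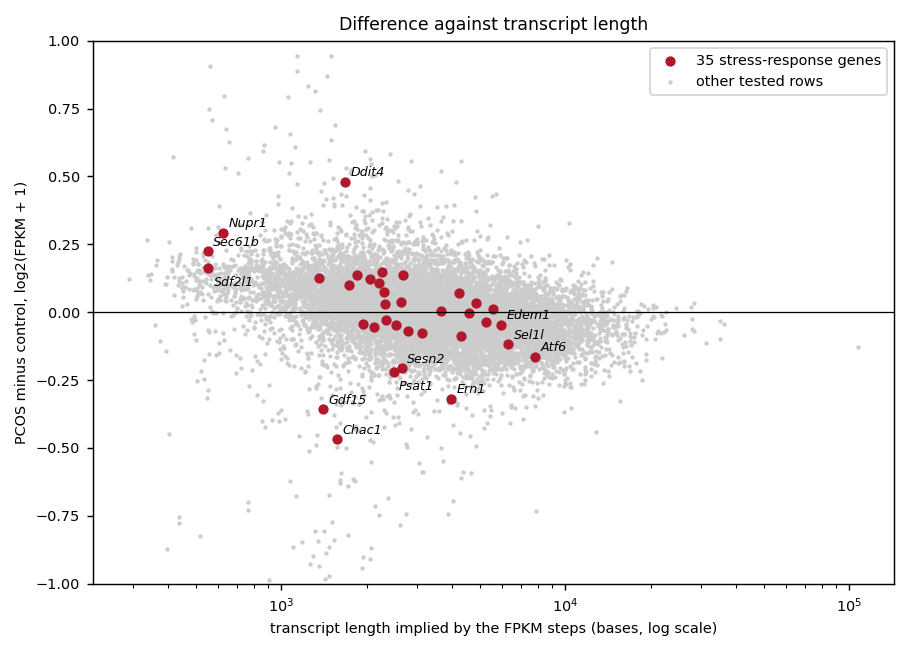
Difference of PCOS from control hearts in log2(FPKM + 1) (vertical axis) against the implied transcript length in bases (horizontal axis, log scale); red points are the 35 genes and grey points the other tested rows, of which 22 lie outside the drawn range. The short genes Nupr1, Sec61b and Sdf2l1 lie above 0 and the long gene Atf6 below, within a grey cloud that slopes the same way.

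Genes of the pathway outside the 39 were also compared. Of 34 further genes of ER folding, translocation and degradation, 27 were tested and 0 passed an adjusted p of 0.05. The differences were positive in 11 and negative in 16, with a median of −0.02. At an unadjusted p under 0.05 (limma), 1 (Sec61g) was higher in PCOS and 1 lower, against 3.51% and 3.17% of all tested rows. Sec61g, another channel subunit, was at 68.1 ± 5.77 FPKM in PCOS hearts (SD, n = 5) and 59.7 ± 7.74 FPKM in control hearts (SD, n = 6; difference 0.19, SE 0.09, adjusted p = 0.738). Dnajc3, an inhibitor of PERK kept in this list, differed by −0.16.

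Of 25 further regulators, all tested, 0 passed an adjusted p of 0.05, with a median of 0.01. At an unadjusted p under 0.05, 0 were higher in PCOS and 1 was lower, against 3.51% and 3.17% of all tested rows. It was Eif2s1, which encodes eIF2alpha itself, at 14.9 ± 1.001 FPKM in PCOS hearts (SD, n = 5) and 16.8 ± 1.17 FPKM in control hearts (SD, n = 6; difference −0.16, SE 0.07, adjusted p = 0.738). Traf2, an adaptor of IRE1, differed by 0.15 and Eif2b5, a subunit of the exchange factor that phosphorylated eIF2alpha blocks, by 0.10. Of 31 further ATF4 targets for amino acid transport, one-carbon metabolism and tRNA charging, 26 were tested, and 0 passed an adjusted p of 0.05. At an unadjusted p under 0.05 there were also 0, against 6.68% of all tested rows. The differences were positive in 11 and negative in 15, with a median of −0.02. The smallest p-values were those of the tRNA synthetases Wars and Iars (differences −0.13 and −0.14) and the amino acid transporter Slc1a5 (0.28). Voom on the recovered reads also called 0 of the genes in these 3 lists at an adjusted p under 0.05. Without control replicate 6, limma again called 0. At an unadjusted p under 0.05, 3 genes of the ER list were then higher in PCOS and 5 lower. Among the regulators 1 was higher and 2 lower, and among the ATF4 targets 0 and 2. Of all tested rows, 9.62% were higher and 9.75% lower in that fit.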

How the data were processed

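RNA of 5 PCOS and 6 control hearts was sequenced as poly(A)-selected, stranded libraries, per the labels' protocols. The submitters' processing notes name Trimmomatic 0.38, HISAT2 2.2.1, HTSeq 0.13.5 and the build mm10; settings and the strand counted are not given in the sources used here. The authors deposited FPKM, one value per RefSeq accession and sample, which were used unscaled. FPKM is relative within a library. Symbols came from RefSeq's GRCm38.p6 table, in which 87.2% of the 21878 rows matched by accession.

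Groups were compared by limma 3.58.1 under R 4.3.3 (lmFit, then eBayes with its trend option), applied to log2(FPKM + 1) of the 10891 rows whose mean reached 1 FPKM, with Benjamini-Hochberg adjustment over these rows. Whole reads were recovered from the FPKM steps in all 15939 rows above 0 in at least 3 samples, within 0.01 of a whole number, and gave depth, transcript length and a voom alternative. Both steps were tested on simulated data. The number of reads limits the precision of low genes. Named genes were the 3 with the smallest p in each role group (2 in small groups), plus a fixed set of central genes; others are marked or stand in counts. The genes and lists were chosen with earlier results of these data known. Alternatives were other pseudocounts, filters and scalings, a replicate block, sample weights, voom and leaving samples out. A gene of the further pathway lists that the rule would name is not reported here.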

Additional observations from a re-analysis of the deposited data

Results flagged for a closer look

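In 8 of 70 groups of values (35 genes, PCOS and control each) the highest or lowest sample stood farther from the rest than Dixon's 95% critical value, which chance gives in about 1 in 20 groups. Ppp1r15a was highest at 35.64 FPKM in PCOS replicate 3 and at 42.84 FPKM in control replicate 5, both also highest in summed immediate-early genes. Creld2 was at 13.14 FPKM in PCOS replicate 5 and at 14.1 FPKM in control replicate 6, and Pdia3 at 87.35 FPKM in control replicate 6, the library with liver transcripts. Sdf2l1 was lowest at 5.08 FPKM in PCOS replicate 1, Calr highest at 208.7 FPKM in PCOS replicate 2 and Gdf15 highest at 3.718 FPKM in PCOS replicate 3.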

How the results depend on the processing

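None of the 35 tested genes passed an adjusted p of 0.05 in any of the 21 alternatives it was tested in (lowest 0.0648, for Ddit4), nor did any gene of the 3 further lists. The number at an unadjusted p under 0.05, which was 4, was 2 with a filter at a mean of 5 FPKM (6.78% of all rows), 12 with sample weights (18.9% of all rows), 1 without control libraries 2 and 5 (2.95%), and from 2 to 13 when each sample was left out; 13 came without control replicate 6 (19.4%) and 2 without PCOS replicate 2 (4.11%) or control replicate 4 (6.4%). Ddit4 was among them in every alternative, and Sesn2 in every one but the filter at 5, where it was not tested, and the fit without control libraries 2 and 5. With the replicate number as a block it was 11 (18.0% of all rows); this fit gives control replicate 6 a level of its own and so drops it from the comparison. The labels tie no replicate number to a litter or batch, so the numbers were not taken to pair samples. Same-numbered samples deviated from their group means with correlations of −0.118 to 0.254. Of 5 PCOS samples, 0 correlated best with the control of their number. Of controls 1 to 5, 1 correlated best with the PCOS sample of its number. Over all tested rows, where 15 passed an adjusted p of 0.05, 5 did with the filter at 5, 25 with sample weights, 25 with the replicate block and 10 to 32 when each sample was left out, 32 without control replicate 6. Groups that did not overlap, 0 in all samples, were 0 to 2 when each sample was left out (0.808% to 3.55% of all tested rows), 1 without control libraries 2 and 5 (129 of all 10891 tested rows), and 3 without 2, 5 and 6 (6.02%). In 15 of the 35 genes the difference changed sign in at least 1 alternative: Eif2ak2, Eif2ak4, Atf5, Ppp1r15a, Ppp1r15b, Sdf2l1, Manf, Pdia3, Pdia6, Edem1, Syvn1, Eif2ak3, Xbp1, Ddit3 and Calr. Eif2ak3 ranged from −0.00122 (without control replicate 4) to 0.07155 when each sample was left out, and Xbp1 from −0.01386 (without control replicate 2; −0.01022 without 3) to 0.07564; Xbp1 was −0.03884 without control libraries 2 and 5, Ddit3 −0.0015 without those libraries, and Calr 0.04378 with sample weights. The cause was not tested. The lowest of the tested genes had 11 reads in a sample, which limits what Gdf15, Asns, Chac1 and Sdf2l1 can show.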
